A study of Mus musculus with 1677 samples.

Results

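Bdh1, Oxct1 and Acat1, enzymes of ketone body synthesis and use, were taken by name from the table of gene counts, as 3 of its 24533 gene rows. Their levels were followed in all 22 tissues of wild-type C57BL/6J mice fed a Western diet (45% fat, 17% sucrose) for 7 weeks. In ad-libitum feeding (ALF) the diet was always at hand, and in time-restricted feeding (TRF) it was given for 9 h a day, from ZT13 to ZT22. ZT is the clock time in hours after lights on in 12 h of light and 12 h of darkness, so TRF mice had no food from ZT22 to ZT13. The mice were bought at 10 weeks of age and had eaten chow for 2 weeks before the diet began, in both groups. There were 517 ALF and 518 TRF libraries, 21 to 24 per tissue and feeding group, spread over 12 clock times 2 h apart. Most of the 528 combinations of tissue, group and hour held 2 libraries (507), and the other 21 held 1. The labels do not say that 2 libraries of a group came from separate mice, so p-values measure the spread between libraries.

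Ketone bodies carry energy from fat out of the liver when food is scarce. Acetyl-CoA from fatty acid oxidation is turned into acetoacetate in liver mitochondria, and Bdh1, beta-hydroxybutyrate dehydrogenase of the inner mitochondrial membrane, reduces acetoacetate to beta-hydroxybutyrate for export. In tissues that burn ketone bodies Bdh1 runs the other way, Oxct1 (succinyl-CoA:3-ketoacid CoA transferase) attaches CoA to acetoacetate, and Acat1, the mitochondrial acetoacetyl-CoA thiolase, splits the product into acetyl-CoA. Hepatocytes are known for a very low level of Oxct1, which keeps them from using what they make. Acat1 also works in the breakdown of isoleucine.

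All 3 are protein-coding genes of the GENCODE annotation on GRCm38, the build named in the submitters' processing notes. Bdh1 (ENSMUSG00000046598.15) lies on chromosome 16 from 31422280 to 31458901 on the plus strand, and its longest transcript has 7 exons and 3122 bases. Oxct1 (ENSMUSG00000022186.14) lies on chromosome 15 from 4026383 to 4155344 on the plus strand, with 17 exons and 3527 bases. Acat1 (ENSMUSG00000032047.5) lies on chromosome 9 from 53580522 to 53610382 on the minus strand, with 12 exons and 3405 bases. The DNA just before the starts of Oxct1 and Bdh1 is shown because both genes had a daily course in liver. The stretches are from RefSeq on GRCm38.p6, plus strand, 5′ to 3′, without bases of any annotated exon, and the second one of Bdh1 precedes a later start inside the gene.
Oxct1, chr15:4026178-4026382: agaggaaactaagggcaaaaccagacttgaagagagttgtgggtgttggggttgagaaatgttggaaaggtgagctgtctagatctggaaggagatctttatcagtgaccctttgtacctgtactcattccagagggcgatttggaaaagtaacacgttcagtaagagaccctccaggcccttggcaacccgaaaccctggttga
Bdh1, chr16:31422047-31422279: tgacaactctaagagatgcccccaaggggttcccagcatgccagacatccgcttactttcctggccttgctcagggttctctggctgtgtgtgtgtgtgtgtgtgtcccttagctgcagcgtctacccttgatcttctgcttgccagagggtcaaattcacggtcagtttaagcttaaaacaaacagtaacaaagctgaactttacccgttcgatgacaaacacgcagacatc
Bdh1, chr16:31428503-31428747: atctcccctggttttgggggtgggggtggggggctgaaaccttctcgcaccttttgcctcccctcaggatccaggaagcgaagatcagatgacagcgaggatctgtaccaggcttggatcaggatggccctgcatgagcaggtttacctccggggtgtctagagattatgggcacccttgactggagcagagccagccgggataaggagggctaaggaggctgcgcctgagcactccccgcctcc
Both strands of the 250 bases before each of these starts were searched for the E-box CACGTG, the D-box TTATGTAA, the nuclear receptor core site AGGTCA, the DR1 element (that core site in 2 copies with 1 base between), the CRE TGACGTCA and the FOXO site TGTTTAC. None of these letters was found in the 3 windows, so no base is in capitals. Of 32851 promoters of that length, 6.02% held the E-box, 0.819% the D-box, 14% the core site, 0.0335% DR1, 1.55% the CRE and 3.17% the FOXO site.

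Library totals were 2.26 M counts or more with a median of 11.3 M, and 3 libraries held over 100 M (2 of lung, 1 of muscle). By whole-profile correlation 4 inguinal fat libraries, all ALF, were closest to epididymal fat, 4 kidney medulla libraries (1 ALF, 3 TRF) to kidney cortex, 1 duodenum library to ileum and 1 ileum library to duodenum. Marker lists of the main tissues were highest in their own tissue, except that the arcuate list was highest in adrenal, the dentate granule list in heart and the choroid plexus list in liver. Levels are given in CPM, a gene's count scaled to the library total.

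In ALF Bdh1 was highest in liver and kidney medulla and lowest in eWAT. In liver the lowest, median and highest of 24 ALF libraries were 144, 328 and 444 CPM (331 ± 82.2, mean ± SD), and of 24 TRF libraries 118, 261 and 499 CPM (267 ± 87.1). In kidney medulla they were 174, 329 and 400 CPM in ALF (314 ± 49.5) and 280, 352 and 432 CPM in TRF (347 ± 37.6). On this scale the log2 difference between liver and kidney medulla in ALF was 0.04 and did not pass (adjusted p = 0.75, two-sided permutation test between neighbours in the order, adjusted over 63 pairs). Scaled by trimmed means (TMM) over all libraries, liver stood above kidney medulla by 1.12 (adjusted p = 3.7e-05), with ALF means of 660 ± 165 and 297 ± 45.8 CPM. Duodenum followed at 242 ± 26.1 CPM in ALF (n = 24), then kidney cortex at 192 ± 26.4, jejunum at 171 ± 23.6, ileum at 132 ± 15.2, heart at 127 ± 26.2, muscle at 108 ± 28.1 and stomach at 87.4 ± 7.27. Along the small intestine Bdh1 was thus highest in duodenum and lowest in ileum. Jejunum and ileum, neighbours in the order, differed by 0.37 on the log2 scale (adjusted p = 3.3e-05, the smallest that these permutations can give). The 6 brain regions lay between 33.5 CPM (arcuate nucleus) and 44.6 CPM (dorsomedial hypothalamus) in the ALF mean. Among them the neighbours in the run of dorsomedial hypothalamus, hypothalamus, amygdala and dentate gyrus did not pass the test, nor did the suprachiasmatic nucleus against the arcuate nucleus. Spleen, lung, adrenal, pancreas, brown fat (BAT), inguinal fat (iWAT) and epididymal fat (eWAT) were all at or under 12.8 CPM in ALF. In eWAT the ALF mean was 0.689 CPM, a median of 10 counts per library, 480 times under liver. In TRF the lowest tissue was again eWAT (0.781 CPM) and the highest was kidney medulla, 444 times above it, while iWAT (6.45 CPM) stood above lung, adrenal, BAT and pancreas in the order of mean log2 CPM. With TMM over all libraries liver (555 CPM) stood above kidney medulla (334 CPM) in TRF too.

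Oxct1 had a nearly opposite extreme, with liver at the bottom. It was highest in kidney medulla (2480 ± 270 CPM in ALF, n = 24), kidney cortex (2040 ± 228) and heart (1860 ± 127), and each of these 3 differed from the next in the order (adjusted p = 3.3e-05, 0.0048 and 3.3e-05, permutation test). With TMM over all libraries heart stood between the kidney parts, and the steps from medulla to heart (0.06, adjusted p = 0.35) and from heart to cortex (0.05, adjusted p = 0.4) did not pass. Stomach came next at 848 ± 152 CPM, then BAT at 630 ± 96.2, muscle at 551 ± 56.6, eWAT at 506 ± 80.9, dentate gyrus at 448 ± 22.3 and iWAT at 430 ± 70. In liver the lowest, median and highest ALF libraries were 2.51, 5.09 and 8 CPM (5.05 ± 1.58), a median of 82 counts, and the TRF libraries 3.02, 4.93 and 10.6 CPM (5.25 ± 1.75). The ratio of the highest to the lowest tissue mean was 491 in ALF and 469 in TRF. On the TMM scale the same ALF means were 2360 and 10 CPM. Pancreas was the second lowest tissue, at 36 ± 14.4 CPM in ALF. Neighbours that did not pass the test were dentate gyrus and iWAT; the run of arcuate nucleus, hypothalamus, ileum and amygdala (296 to 318 CPM); and the run of duodenum, lung, jejunum, suprachiasmatic nucleus and spleen (140 to 179 CPM).

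Acat1 was more even across tissues, with 33.6 times between the highest and the lowest ALF mean and 26.4 times in TRF. BAT led at 1420 ± 171 CPM in ALF (n = 24), followed by kidney medulla (1290 ± 122), kidney cortex (1290 ± 119), heart (999 ± 61.1), liver (591 ± 133) and muscle (357 ± 38.8). Pancreas was lowest at 42.3 ± 11.8 CPM on the scale of library totals. With TMM over all libraries it moved up 6 places, to 105 ± 44.5 CPM, and spleen was lowest (72.9 ± 8.46 CPM). The kidney medulla and cortex did not pass against each other (adjusted p = 0.93, permutation test), but with TMM cortex stood above medulla by 0.17 (adjusted p = 0.0073). On the scale of library totals the neighbours that did not pass either were duodenum, stomach and iWAT (294 to 309 CPM), jejunum and adrenal (257 and 262 CPM), and the run of lung, amygdala, suprachiasmatic nucleus, dentate gyrus and spleen (89.7 to 107 CPM). In all, 9 of 21 neighbour pairs of Bdh1, 8 of Oxct1 and 8 of Acat1 did not pass the test.

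**Figure D1:**
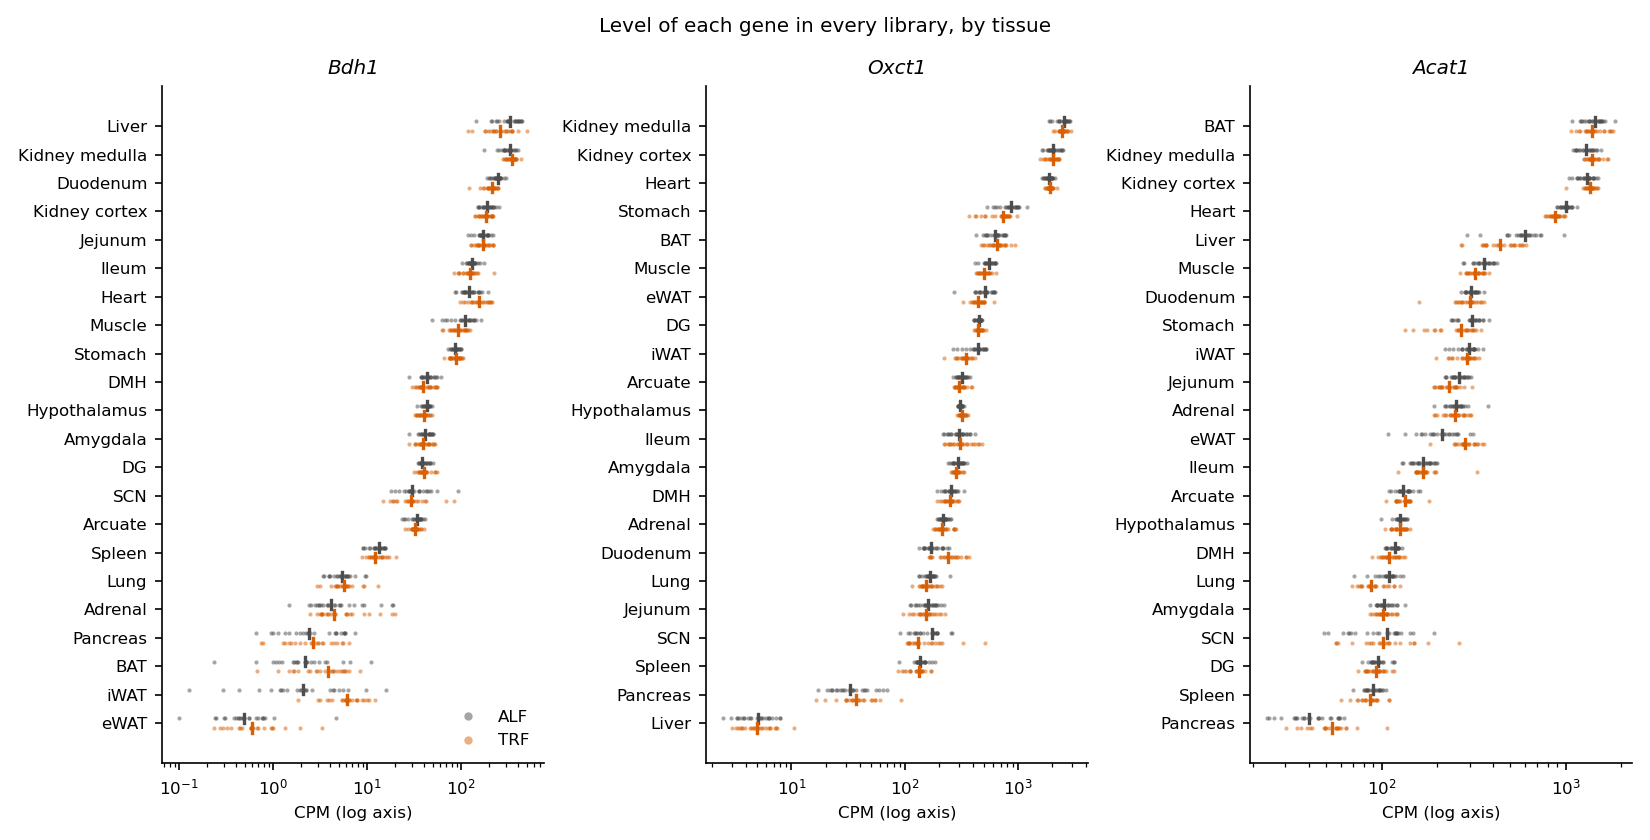
Level of Bdh1, Oxct1 and Acat1 in every library, in CPM on a log axis, by tissue in the order of the ALF mean, with ALF and TRF libraries side by side. With counts scaled to library totals, Bdh1 and Oxct1 each span over 400 times between tissues, with liver at the top for Bdh1 (331 CPM) and at the bottom for Oxct1 (5.05 CPM), while Acat1 spans 33.6 times in ALF.

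Set against each other per kilobase of the longest transcript, Oxct1 was the highest of the 3 genes in 763 of 1035 libraries, Acat1 in 261 and Bdh1 in 11. Oxct1 led in every library of 13 tissues, and Acat1 in every library of 1 tissue, BAT. In liver the order was turned over: the ratio of Bdh1 to Oxct1 per kilobase had a median of 66.3 in ALF (30 to 150) and 60.6 in TRF (22.8 to 116), and that of Acat1 to Oxct1 had a median of 121 in ALF (44.2 to 201) and 94.2 in TRF (42.3 to 162). Besides liver, the median ratio of Bdh1 to Oxct1 was above 1 in ALF in duodenum (1.55, from 0.989 to 2.33) and jejunum (1.17, from 0.827 to 1.63). In ileum it was 0.493 and in eWAT 0.0011. Liver, duodenum and jejunum were therefore the 3 tissues where the enzyme that makes and takes beta-hydroxybutyrate had more transcript per kilobase than the enzyme that activates acetoacetate. In duodenum the ratio was 0.984 in TRF (0.379 to 1.68), and the ALF and TRF ranges overlapped.

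**Figure D2:**
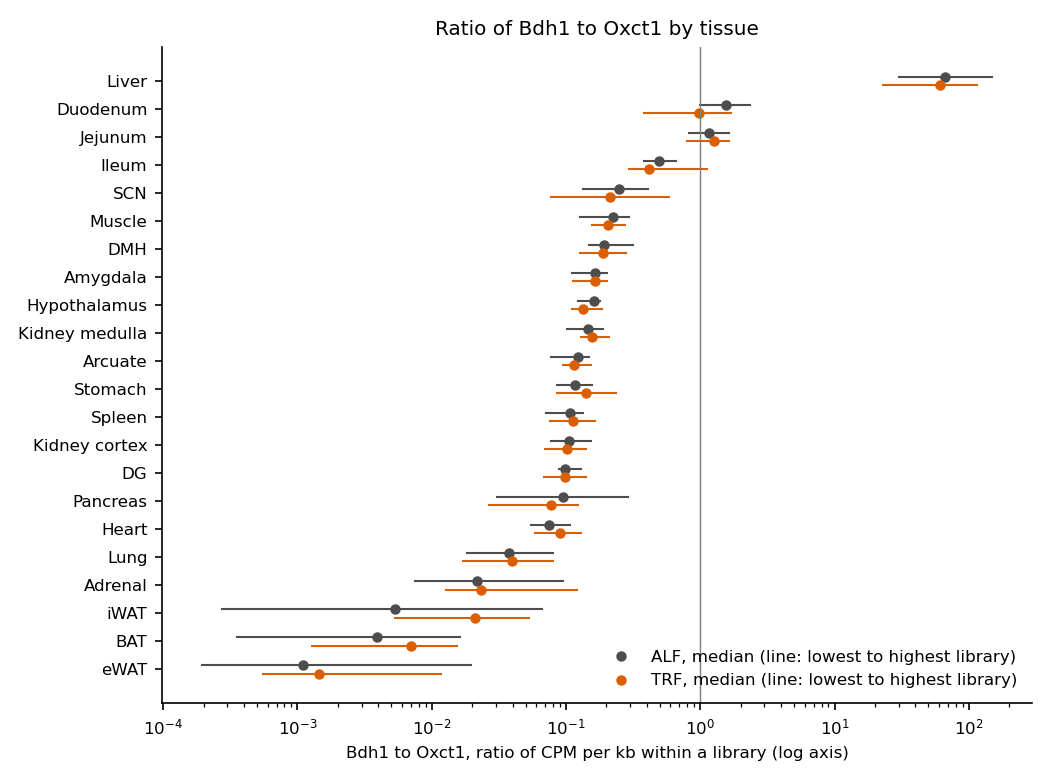
Ratio of Bdh1 to Oxct1 in CPM per kilobase within each library, on a log axis, by tissue and feeding group, with a line at 1. Liver stands alone near 60, duodenum and jejunum lie around 1, and eWAT is lowest at a median of 0.0011 in ALF.

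For each of the 22 tissues the ALF and TRF means of log2 CPM were averaged. Across these values Bdh1 and Oxct1 had a Pearson r of 0.109, Bdh1 and Acat1 of 0.331, and Oxct1 and Acat1 of 0.481. The r values are given as a description, since tissues share a laboratory and an assay. Of 16613 genes compared over the same 22 tissues, those most like Acat1 were Pmpcb (r = 0.96), a subunit of the protease that trims imported mitochondrial proteins, Mcee (0.95), methylmalonyl-CoA epimerase of branched-chain amino acid and odd-chain fat breakdown, Hibadh (0.94) of valine breakdown, Gfm1 (0.94), a mitochondrial translation factor, and Clpx (0.94) of the mitochondrial Clp protease. The genes most like Oxct1 were Ybx2 (0.84), BC037032 (0.83), Trak2 (0.82), an adaptor for mitochondrial transport, Acss1 (0.81), the mitochondrial acetyl-CoA synthetase, and Abcc4 (0.8). Those most like Bdh1 reached lower values: Hook1 (0.79), Cpox (0.77) of haem synthesis, Slc35d1 (0.75), Abhd18 (0.74) and Lig3 (0.74).

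The feeding comparison asked whether confining the same diet to 9 h of the night altered the mean level over the day. The libraries of a tissue were fitted apart from those of the others, with clock time taken out, by edgeR's quasi-likelihood test with Benjamini-Hochberg adjustment over all genes of that tissue, and an adjusted p under 0.05 counts as passed. Of 66 tests (3 genes in 22 tissues), 20 passed: 6 higher in TRF and 14 lower. Over all genes and tissues 10% of 306020 tests passed as higher and 9.72% as lower. Bdh1 was higher in iWAT, heart and kidney medulla and lower in liver, duodenum and hypothalamus. Oxct1 was higher in duodenum and hypothalamus and lower in iWAT, eWAT, stomach and pancreas, where scaling by library size alone turned the direction. Acat1 was higher in eWAT and lower in heart, liver, stomach, jejunum, lung, muscle and iWAT. No gene passed in the other 10 tissues: ileum, kidney cortex, BAT, adrenal, spleen and the 5 brain regions other than the whole hypothalamus. In bulk tissue, fewer cells of a type and less RNA per cell cannot be told apart.

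**Figure D3:**
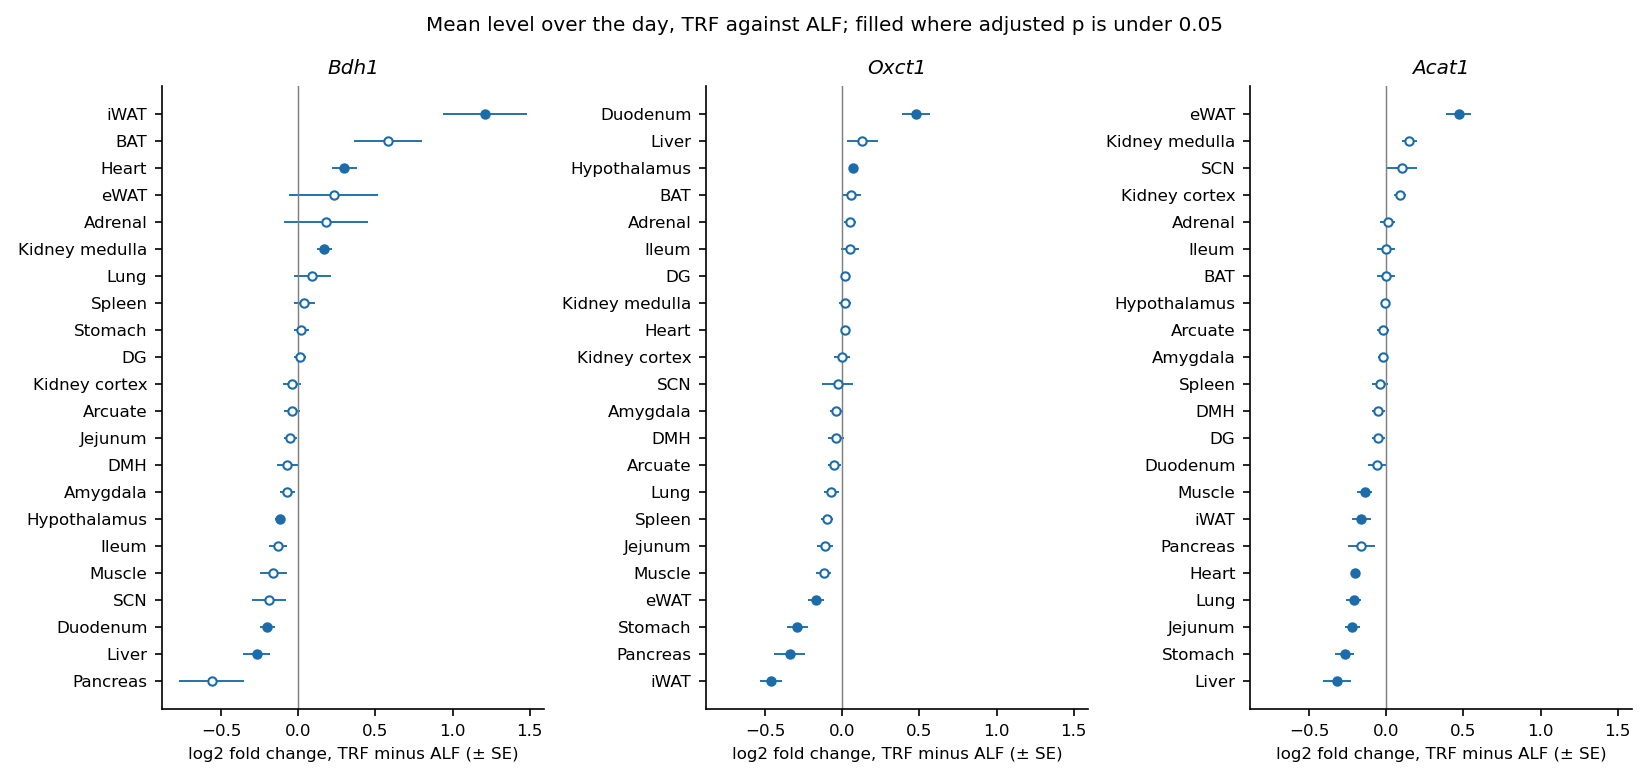
Log2 fold change of the mean level, TRF minus ALF, with its standard error for each gene in each tissue. Filled points passed at an adjusted p under 0.05. Bdh1 in iWAT stands furthest to the right (1.21), and 14 of the 20 filled points lie left of 0.

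In liver, the organ that makes ketone bodies, both Bdh1 and Acat1 fell under TRF. Bdh1 fell by 0.27 ± 0.09 on the log2 scale (SE, adjusted p = 0.03, edgeR), and lower at 10 of 12 clock times, though the libraries overlapped as given above. Acat1 ran from 291 through a median of 597 to 982 CPM in ALF and from 268 through 439 to 610 CPM in TRF. It fell by 0.32 ± 0.09 (adjusted p = 0.0092, edgeR) and lower at 11 of 12 clock times. In liver 20.7% of all genes passed this test in either direction. Hepatocyte markers (5 of 5 measured) summed to 83400 to 118000 CPM in ALF and 79100 to 132000 CPM in TRF, with 2 higher in TRF and none lower. The liver Bdh1 call was lost when ZT4, ZT6, ZT18 or ZT20 was left out (log2 fold change -0.27 to -0.23, adjusted p 0.056 to 0.089).

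In heart, a tissue that burns ketone bodies, Bdh1 rose and Acat1 fell. Bdh1 ran from 85.4 through 122 to 193 CPM in ALF and from 96.9 through 155 to 214 CPM in TRF, an increase of 0.30 ± 0.08 on the log2 scale (adjusted p = 0.0062, edgeR) seen at 10 of 12 clock times. Acat1 ran from 894 through 999 to 1150 CPM in ALF and from 770 through 873 to 995 CPM in TRF. It fell by 0.20 ± 0.03 (adjusted p = 3.8e-07) and was lower at 12 of 12 clock times, with some overlap between libraries. Oxct1, at 1860 ± 127 CPM in ALF and 1900 ± 103 CPM in TRF, did not pass. In heart 30.6% of genes passed. Cardiomyocyte markers summed to medians of 48600 CPM in ALF and 48700 CPM in TRF, while the skeletal muscle list summed to medians of 2660 and 3540 CPM, with 2 of the 2 genes tested higher in TRF. Their part in the Bdh1 difference was not tested.

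In iWAT the 3 genes moved in different directions. Bdh1 ran from 0.127 through 2.06 to 15.8 CPM in ALF (3.24 ± 3.51) and from 1.85 through 6.18 to 12.2 CPM in TRF (6.45 ± 2.52), on medians of 48 and 111 counts per library. It rose by 1.21 ± 0.27 on the log2 scale (adjusted p = 0.00021, edgeR) and was higher at 10 of 12 clock times, with overlapping libraries. Oxct1 ran from 268 through 444 to 523 CPM in ALF and from 222 through 343 to 418 CPM in TRF, and fell by 0.46 ± 0.07 (adjusted p = 2.2e-06) seen at 10 of 12 clock times. Acat1 fell by 0.16 ± 0.06 (adjusted p = 0.025), from a median of 298 to 291 CPM, and was lower at 7 of 12. In iWAT 66.2% of all genes passed, so each of these calls is among many. Markers of other cells moved too: the 7 skeletal muscle fibre genes, none at 0 throughout, summed to 23.1 to 6560 CPM in ALF (median 188) and 12 to 16000 CPM in TRF (median 2520), and 6 of 7 rose. In muscle itself that list summed to a median of 147000 CPM in ALF, where Bdh1 had a mean of 108 CPM. Adipocyte markers fell from a median sum of 31400 to 26700 CPM (6 of 7 lower, 1 higher), brown adipocyte markers rose from 33.1 to 77.3 CPM (4 of 4), and lymphocyte markers from 201 to 623 CPM (5 of 5). With the libraries over 1000 CPM of muscle markers left out (4 ALF, 19 TRF), Bdh1 ran from 0.127 through 1.87 to 15.8 CPM in 20 ALF libraries and from 4.2 through 7.67 to 10.1 CPM in 5 TRF libraries. The difference was then 1.66 (adjusted p = 0.027), that of Oxct1 -0.41 (adjusted p = 0.012) and that of Acat1 -0.09 (adjusted p = 0.38). Without the 4 ALF libraries closest to eWAT, the tissue of lowest Bdh1 (ZT2 replicate 1, ZT10 replicates 1 and 2, ZT20 replicate 1), the Bdh1 difference was 0.92 (adjusted p = 0.0016), that of Oxct1 -0.41 (adjusted p = 4.5e-05) and that of Acat1 -0.15 (adjusted p = 0.066). The Acat1 call was also lost without ZT6, ZT10, ZT14, ZT16 or ZT20, and with library size alone as the scale (-0.05).

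In eWAT Acat1 rose while Oxct1 fell. Acat1 ran from 108 through 212 to 314 CPM in ALF and from 182 through 281 to 359 CPM in TRF, a rise of 0.47 ± 0.08 on the log2 scale (adjusted p = 9.4e-06, edgeR) seen at 10 of 12 clock times. Oxct1 ran from 269 through 511 to 623 CPM in ALF and from 323 through 442 to 608 CPM in TRF, and fell by 0.17 ± 0.05 (adjusted p = 0.0062) seen at 10 of 12. Both pairs of ranges overlapped, and the median ratio of Acat1 to Oxct1 per kilobase was 0.393 in ALF and 0.69 in TRF. In eWAT 59.2% of genes passed. Adipocyte markers summed to a median of 29100 CPM in ALF and 38900 CPM in TRF (6 of 7 higher, 1 lower), and macrophage markers to 2660 and 1030 CPM (5 of 5 lower). Their part in the 2 differences was not tested.

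In duodenum the members moved apart: Oxct1 rose and Bdh1 fell. Oxct1 ran from 133 through 171 to 244 CPM in ALF (179 ± 30.9) and from 165 through 242 to 365 CPM in TRF (247 ± 58.9). The difference was 0.48 ± 0.09 on the log2 scale (adjusted p = 7.1e-05, edgeR), and TRF was higher at 11 of 12 clock times. Bdh1 ran from 187 through 245 to 298 CPM in ALF and from 122 through 212 to 249 CPM in TRF, and fell by 0.20 ± 0.05 (adjusted p = 0.0017) seen at 11 of 12 clock times. The highest TRF library of Oxct1 and the lowest of Bdh1 were the same one, TRF at ZT4, replicate 2, whose whole profile was closest to ileum. Without it the differences were 0.41 (adjusted p = 0.00014) for Oxct1 and -0.19 (adjusted p = 0.0011) for Bdh1. The libraries overlapped for both genes, and 40.8% of all genes passed in duodenum. Pancreatic acinar markers, from the organ that lies against the duodenum, summed to 15.6 to 38800 CPM in ALF and 11.5 to 28800 CPM in TRF, and none of 5 passed. With the libraries over 1000 CPM of them left out (16 in each group), the Oxct1 difference was 0.86 (adjusted p = 0.023) and that of Bdh1 -0.31 (adjusted p = 0.14).

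In stomach Oxct1 and Acat1 fell together. Oxct1 ran from 529 through 867 to 1200 CPM in ALF and from 365 through 737 to 979 CPM in TRF, and fell by 0.29 ± 0.07 on the log2 scale (adjusted p = 0.0034, edgeR). Acat1 ran from 237 through 310 to 381 CPM in ALF and from 134 through 268 to 347 CPM in TRF, and fell by 0.27 ± 0.06 (adjusted p = 0.0016). Each was lower at 8 of 12 clock times, and 24.8% of genes passed in stomach. Gastric markers summed to medians of 52400 and 49900 CPM, with none of 5 past the test.

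Differences passed in 6 further places. In hypothalamus Bdh1 ran from 34.4 through 43.3 to 48.8 CPM in ALF and from 32.3 through 40.1 to 49.3 CPM in TRF, and fell by 0.12 ± 0.03 on the log2 scale (adjusted p = 0.002, edgeR). Oxct1 ran there from 293 through 306 to 336 CPM and from 291 through 319 to 360 CPM, a rise of 0.07 ± 0.02 (adjusted p = 0.0042). Acat1 fell by 0.22 ± 0.05 in jejunum (adjusted p = 0.00058), from 262 ± 24.5 to 233 ± 29 CPM. In lung it fell by 0.21 ± 0.05 (adjusted p = 0.011), from 107 ± 13.2 to 91.8 ± 15.2 CPM, and in muscle it fell by 0.14 ± 0.05 (adjusted p = 0.021), from 357 ± 38.8 to 323 ± 28.2 CPM. The muscle call was lost without ZT4 or ZT20 (adjusted p = 0.055 and 0.062). Bdh1 rose in kidney medulla by 0.17 ± 0.05 (adjusted p = 0.045), a call lost without the 4 libraries closest to cortex (0.16, adjusted p = 0.062) and without any 1 of 9 clock times (0.14 to 0.18). The libraries of both groups overlapped in each of these 6. Each call was 1 among others in its tissue. With library size alone as the scale, 2335 genes passed as higher and 2709 as lower in hypothalamus. The counts were 4170 and 2123 in jejunum, 171 and 159 in lung, 1613 and 1894 in muscle, and 205 and 198 in kidney medulla.

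The pancreas value depends on the scale. Oxct1 ran from 17.2 through 33.2 to 69.2 CPM in ALF and from 16.5 through 37.4 to 91.8 CPM in TRF, so CPM was higher in TRF at 8 of 12 clock times, whereas the fit, scaled by trimmed means, had it decreased by 0.34 ± 0.10 on the log2 scale (adjusted p = 0.041, edgeR). With library size alone the difference was 0.16 (adjusted p = 0.29). On that scale the median gene of pancreas stood 0.47 higher in TRF, and that of iWAT 0.13 higher. In pancreas 8198 genes then passed as higher and 30 as lower. Pancreatic acinar markers summed to a median of 303000 CPM in ALF and 216000 CPM in TRF. The call was also lost without any 1 of 8 clock times (-0.33 to -0.26).

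A correction for each gene's GC content ended 8 of the 20 calls and kept their sign. They were Bdh1 in duodenum (-0.07), Oxct1 in hypothalamus (0.01), stomach (-0.17) and eWAT (-0.08), and Acat1 in jejunum (-0.14), lung (-0.14), muscle (-0.09) and stomach (-0.15). With 1 library left per group and clock time, 5 calls held without replicate 1 and 9 without replicate 2. Acat1 in heart and eWAT and Oxct1 in duodenum passed in every setting run.

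Where a gene passed in opposite directions, the difference between the 2 tissues was tested itself, as a tissue by feeding term. These pairs were chosen for calls in opposite directions, so that their difference passes follows largely from the choice: 24 of 24 did, 9 for Bdh1, 8 for Oxct1 and 7 for Acat1. Over all genes, without that choice, 38.7% of the tests in these pairs passed (144766 of 374438). Acat1 in eWAT and iWAT, both white fat, differed by 0.64 ± 0.10 on the log2 scale (adjusted p = 2e-07, edgeR), and Oxct1 in duodenum and stomach by 0.79 ± 0.12 (adjusted p = 1.6e-07).

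Split by the TRF schedule, 8 tests passed in the hours without food for TRF mice and 17 in the hours when both groups could eat. At ZT0 to ZT12, when TRF mice had no food, 3 of 66 tests were higher in TRF (background 5.35%) and 5 lower (5.61%). At ZT14 to ZT22, 5 were higher (7.37%) and 12 lower (7.14%). The difference between the windows itself passed in 0 of 66 tests by edgeR, against a background of 0.895% at the same adjusted threshold. At an unadjusted p under 0.05 there were 5 of 66, and no background was taken for that threshold. In liver at ZT14 to ZT22 Bdh1 ran from 210 through 297 to 375 CPM in 10 ALF libraries and from 118 through 212 to 262 CPM in 10 TRF libraries, and fell by 0.48 ± 0.14 (adjusted p = 0.009, edgeR). Acat1 fell there by 0.56 ± 0.13 (adjusted p = 0.0024), and Oxct1, from 3.47 through 5.39 to 6.68 CPM in ALF and from 4.79 through 6.46 to 10.6 CPM in TRF, rose by 0.38 ± 0.14 (adjusted p = 0.045). The Oxct1 call was lost in 5 of 8 alternatives: library size alone, no filter on low counts, without ZT0 and ZT22, and without either replicate. None of the 3 genes passed in liver at ZT0 to ZT12. In stomach at ZT14 to ZT22 Oxct1 fell by 0.52 ± 0.10 (adjusted p = 0.00072), from 911 ± 110 to 552 ± 143 CPM (n = 10 each), and Acat1 by 0.49 ± 0.08 (adjusted p = 0.00025), from 320 ± 33 to 198 ± 48.1 CPM. The other calls of this window were Bdh1 in iWAT (1.68 ± 0.42), Oxct1 in duodenum (0.60 ± 0.14), hypothalamus (0.09 ± 0.03), muscle (-0.21 ± 0.07), eWAT (-0.23 ± 0.08) and iWAT (-0.58 ± 0.11), and Acat1 in eWAT (0.58 ± 0.12), heart (-0.23 ± 0.04), jejunum (-0.28 ± 0.08), lung (-0.28 ± 0.07), muscle (-0.21 ± 0.07) and iWAT (-0.26 ± 0.10). At ZT0 to ZT12 Bdh1 differed in duodenum (-0.29 ± 0.06), hypothalamus (-0.13 ± 0.04) and iWAT (0.88 ± 0.34), Oxct1 in duodenum (0.40 ± 0.12) and iWAT (-0.38 ± 0.09), and Acat1 in heart (-0.18 ± 0.04), jejunum (-0.18 ± 0.07) and eWAT (0.39 ± 0.10). Without the 4 iWAT libraries closest to eWAT the Bdh1 value at ZT0 to ZT12 was 0.45 and no longer passed (adjusted p = 0.23). With the libraries rich in muscle or pancreatic markers left out, the 4 calls in iWAT and duodenum at ZT0 to ZT12 were lost, as were Bdh1 (2.01) and Acat1 (-0.23) in iWAT and Oxct1 in duodenum (1.31) at ZT14 to ZT22. With the correction for GC content the stomach values at ZT14 to ZT22 were -0.14 for Oxct1 and -0.10 for Acat1, neither past the test.

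A 24 h cosine was fitted to the daily course of each gene in each feeding group. It passed in 8 of 66 tests in ALF (background 11.7%) and in 24 of 66 in TRF (background 27.4%). In TRF the passed amplitudes of Bdh1 ran from 0.15 to 0.54 on the log2 scale in 7 tissues, those of Oxct1 from 0.09 to 0.46 in 8 and those of Acat1 from 0.09 to 0.27 in 9. Of the TRF peaks, 5 of 7 for Bdh1 and 6 of 9 for Acat1 fell between ZT0 and ZT12, and 7 of 8 for Oxct1 fell between ZT12 and ZT24. In jejunum Acat1 peaked at ZT7.93 ± 0.69 h (SE; amplitude 0.27 ± 0.05, adjusted p = 2.5e-05, edgeR) and in lung at ZT9.01 in TRF and ZT9.02 in ALF. Oxct1 peaked at ZT22.52 in adrenal (amplitude 0.19), at ZT19.66 in lung (0.22) and at ZT14.24 in duodenum (0.31), a call lost without the libraries rich in pancreatic markers (adjusted p = 0.48). The course differed between the feeding groups in 3 of 66 tests (background 1.74%), with 12 at an unadjusted p under 0.05.

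In liver the fitted course of Bdh1 peaked in the light in both groups. The ALF libraries overlapped, from 144 through 391 to 444 CPM at ZT0 to ZT12 and from 210 through 297 to 375 CPM at ZT14 to ZT22. The ALF fit peaked at ZT6.49 ± 1.19 h with an amplitude of 0.28 ± 0.09 on the log2 scale (adjusted p = 0.036, edgeR), and the TRF fit at ZT7.72 ± 0.61 h with 0.54 ± 0.09 (adjusted p = 4.8e-06). In TRF the clock-time means ran from 172 CPM at ZT20 (226 and 118) to 424 CPM at ZT8 (499 and 350). In ALF they ran from 249 CPM at ZT22 (210 and 287) to 424 CPM at ZT10 (434 and 414). The difference between the 2 courses did not pass (adjusted p = 0.2). The ALF call was lost in 4 of 8 alternatives: library size alone as the scale, no filter on low counts, and without either replicate.

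Oxct1 in liver, though at a few CPM, had a daily course in both groups, and it peaked later in TRF. The ALF means ran from 2.72 CPM at ZT0 (2.51 and 2.94) to 7.66 CPM at ZT10 (7.37 and 7.94). The TRF means ran from 3.45 CPM at ZT6 (3.88 and 3.02) to 8.52 CPM at ZT16 (10.6 and 6.47). The ALF fit peaked at ZT13.47 ± 0.74 h (amplitude 0.44 ± 0.08, adjusted p = 0.00063, edgeR) and the TRF fit at ZT18.02 ± 0.70 h (0.46 ± 0.08, adjusted p = 4.2e-05), and the courses differed (adjusted p = 0.016). In TRF liver the fit of the gene that activates acetoacetate thus peaked in the feeding hours, and that of Bdh1 outside them. In ALF the highest Oxct1 mean, at ZT10, lay before those hours, and the fitted peak of ZT13.47 ± 0.74 h lay near their start.

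**Figure D4:**
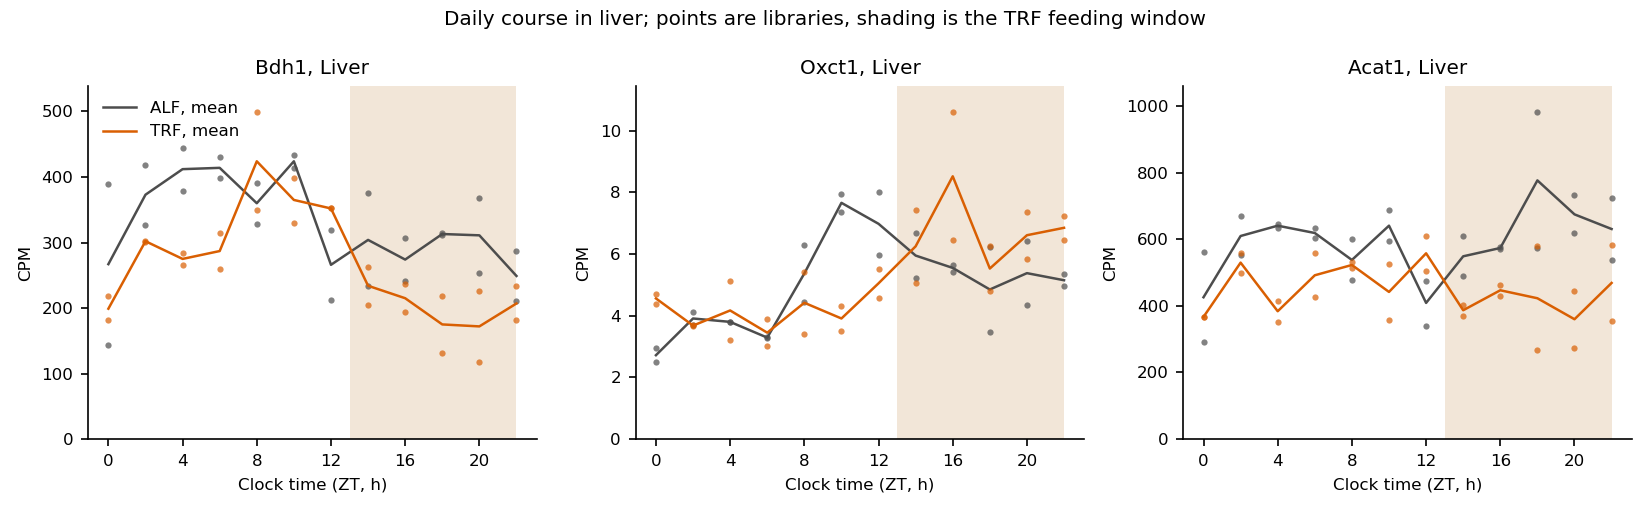
CPM of Bdh1, Oxct1 and Acat1 in liver against clock time, with points for libraries and lines through the means of ALF and TRF, and shading for the TRF feeding hours from ZT13 to ZT22. Bdh1 in TRF falls from 424 CPM at ZT8 to 172 CPM at ZT20, while Oxct1 in TRF rises to 8.52 CPM at ZT16.

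In muscle the course of Bdh1 differed between the groups. In ALF the clock-time means ran from 143 CPM at ZT4 (163 and 124) to 55.9 CPM at ZT12 (62.3 and 49.5), and the fit peaked at ZT0.99 ± 0.69 h (amplitude 0.43 ± 0.08, adjusted p = 0.00046, edgeR). In TRF they ran between 74.4 CPM at ZT4 and 111 CPM at ZT8, and the fit did not pass (amplitude 0.07 ± 0.08, adjusted p = 0.72). The difference had an adjusted p of 0.036. Oxct1 in muscle peaked at ZT0.36 ± 1.05 h in ALF (amplitude 0.15 ± 0.04, adjusted p = 0.029) and at ZT8.53 ± 1.31 h in TRF (0.12 ± 0.04, adjusted p = 0.042), and these courses differed too (adjusted p = 0.045). Both differences were lost with the correction for GC content (adjusted p = 0.052 for Bdh1 and 0.15 for Oxct1) and without the muscle library of over 100 M counts, ALF at ZT10, replicate 2 (adjusted p = 0.055 for Bdh1 and 0.072 for Oxct1).

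**Figure D5:**
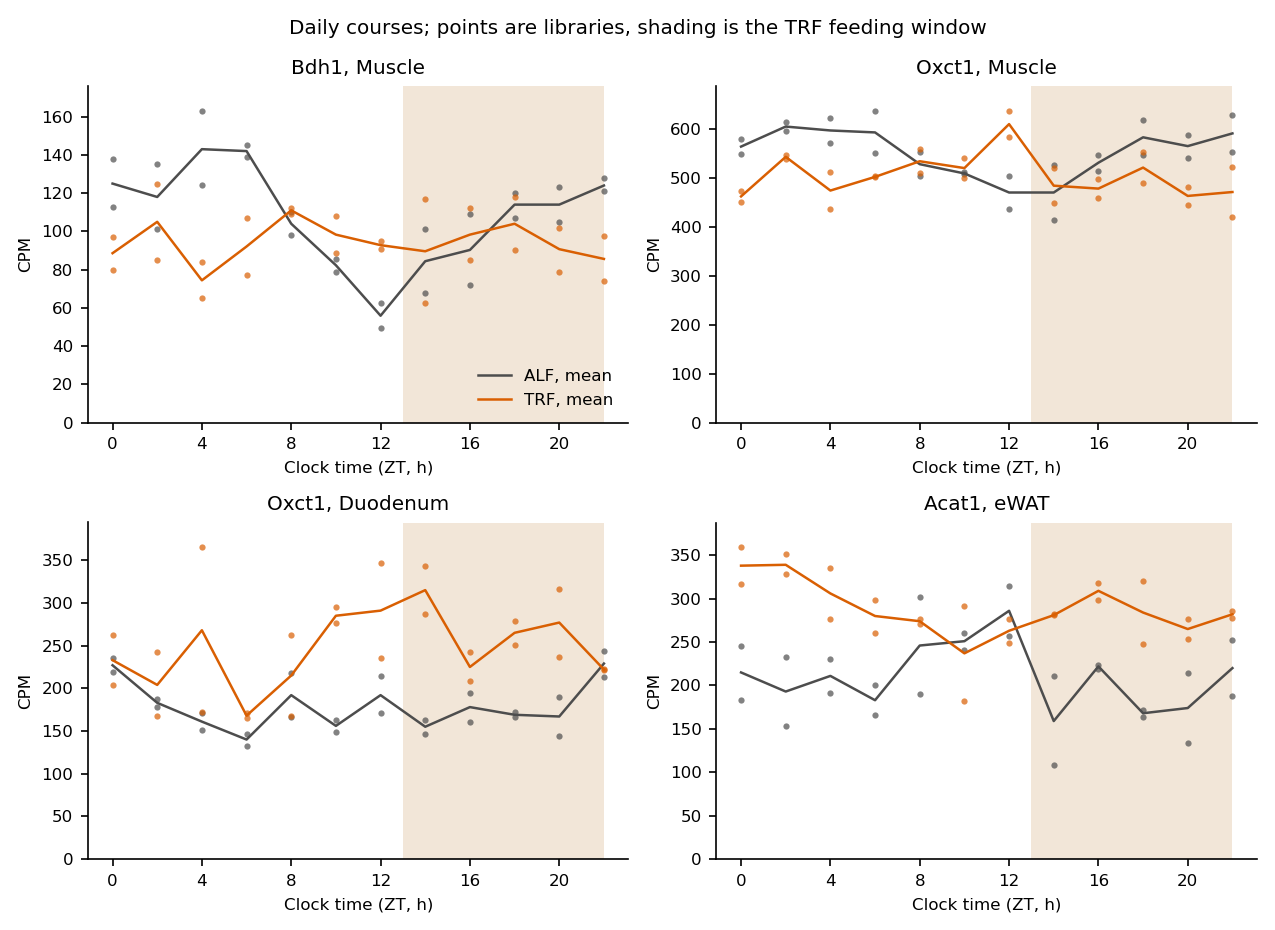
CPM against clock time for Bdh1 and Oxct1 in muscle, Oxct1 in duodenum and Acat1 in eWAT, drawn as for liver. Bdh1 in muscle dips to 55.9 CPM at ZT12 in ALF but not in TRF, and Oxct1 in duodenum and Acat1 in eWAT lie higher in TRF at 11 and 10 of 12 clock times.

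Other genes of the pathway were counted from lists, by the mean level test over all tissues in which each was measured. The shares to set beside these counts, over all genes and tissues, were 10% higher and 9.72% lower. For the list of 7 further ketone enzymes (91 tests), 13 tests were higher in TRF (14.3%) and 8 lower (8.79%). Oxct2a and Oxct2b are on that list but had too few counts to be tested in any tissue, so they gave none of the 91 tests. Of 7 transporters and receptors of ketone bodies and other monocarboxylates (119 tests), 22 were higher (18.5%) and 13 lower (10.9%). Of 15 genes of mitochondrial fatty acid oxidation and its control (328 tests), 48 were higher (14.6%) and 33 lower (10.1%), and of 6 genes of acetyl-CoA use (132 tests), 13 were higher (9.85%) and 9 lower (6.82%). In the fatty acid oxidation list 39 tests were higher and 15 lower at ZT0 to ZT12, and 19 higher and 33 lower at ZT14 to ZT22. These are 11.9% and 4.57% of 328 tests in the first window, where 5.35% and 5.61% of all genes passed, and 5.79% and 10.1% in the second, where 7.37% and 7.14% did. The difference between the windows was not tested for the list.

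Beside Bdh1 and Acat1, liver had lower levels of Acat2 (-0.61 ± 0.11, adjusted p = 0.00012, edgeR), the cytosolic thiolase, Aacs (-0.84 ± 0.24, adjusted p = 0.01), which activates acetoacetate in the cytosol for lipid synthesis, and Slc16a7 (-0.86 ± 0.14, adjusted p = 4.2e-05), the monocarboxylate transporter MCT2. Slc16a6, a transporter linked to the export of ketone bodies from liver, was higher (0.45 ± 0.13, adjusted p = 0.012). Of 15 fatty acid oxidation genes there, 5 fell and none rose (20.7% of all liver genes passed in either direction), with Hadh (-0.53 ± 0.09) and Acadm (-0.42 ± 0.08) of the beta-oxidation spiral leading. In heart, where 30.6% of all genes passed, 9 of the 15 fell and 1 rose, and Acadm fell by 0.24 ± 0.03. In kidney medulla, where Bdh1 rose and 2.93% of all genes passed, 7 of the 15 rose and none fell, with Acadm higher by 0.65 ± 0.07 (adjusted p = 3e-07). Bdh2, on the list of further ketone enzymes, was lower there (-0.23 ± 0.07, adjusted p = 0.047, edgeR). Its mean was 279 CPM in ALF and 234 CPM in TRF. In eWAT, where Acat1 rose and 59.2% of all genes passed, 9 of the 15 rose and 1 fell. All 6 genes of acetyl-CoA use rose there, as did Acat2 (0.61 ± 0.10) and Aacs (1.05 ± 0.20). Acat3 rose by 1.64 ± 0.27, from a mean of 1.84 CPM in ALF to 5.33 CPM in TRF. Of the transporters and receptors, Slc16a1 (0.46 ± 0.09), the transporter MCT1, Slc16a7 (0.56 ± 0.12), Hcar2 (0.51 ± 0.15) and Bsg (0.15 ± 0.04) were higher in eWAT. Slc16a3 (-0.65 ± 0.14) and Slc16a6 (-0.55 ± 0.12) were lower. Acat2 and Acat3 are close copies of each other, so reads may be split between them. In iWAT Acat2 (0.49 ± 0.08), Acat3 (1.19 ± 0.22) and Aacs (0.35 ± 0.12) rose. Slc16a3 (1.34 ± 0.29), MCT4 of glycolytic muscle, rose beside the muscle markers, and so did Slc16a6 (0.68 ± 0.12), Slc16a1 (0.3 ± 0.08) and Hcar2 (0.52 ± 0.16). Slc16a7 (-0.33 ± 0.11) and Bsg (-0.14 ± 0.06) fell in iWAT. In muscle itself the ALF mean was 328 CPM for Slc16a3 and 10.9 CPM for Slc16a6. The part of muscle tissue in these differences was not tested. In duodenum Acads (-0.62 ± 0.09), Aacs (-0.33 ± 0.09), Bsg (-0.23 ± 0.06) and Slc16a3 (-0.63 ± 0.18) fell with Bdh1. So did 2 genes of low level in duodenum, Bdh2 (-0.43 ± 0.14) and Ffar3 (-0.54 ± 0.12), a receptor for short-chain fatty acids. Their ALF and TRF means were 2.14 and 1.54 CPM for Bdh2, and 1.84 and 1.22 CPM for Ffar3. Slc16a7 rose in duodenum by 0.54 ± 0.15. Aacs (0.22), Bsg (0.17) and Slc16a6 (0.21) were higher in heart, and Aacs (0.52) in jejunum. In muscle Aacs (0.69), Slc16a3 (0.3) and Bsg (0.12) were higher and Slc16a7 (-0.55) lower. Stomach had Hcar2 (0.34) and Bsg (0.24) higher and Slc16a7 (-0.29) lower. Pancreas had Acat2 (0.82) and Slc16a1 (0.61) higher and Slc16a6 (-0.32) lower. Hypothalamus had Acat3 (0.28) higher and Aacs (-0.23) and Bsg (-0.11) lower.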

How the data were processed

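RNA from 22 tissues was sequenced as stranded mRNA libraries, per the labels' protocols. The authors deposited 1 table of estimated counts per gene, with 1 column for each of 1035 libraries from 1677 sequencing samples, and how the 1 to 4 runs of a library were combined is not given in the sources used here. The submitters' processing notes name CASAVA 1.8, FastQC 0.11.8, STAR 2.5.3a, HOMER 4.10 and GRCm38. Of the values, 29.62% were not whole, and all were rounded before testing. Left out were 4 rows with duplicated names, and 2 listed genes are not reported here.

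Each tissue was fitted with edgeR 4.0.16 in R 4.3.3 (filterByExpr, TMM scaling, quasi-likelihood test, Benjamini-Hochberg over all genes of the tissue, threshold 0.05): feeding with clock time as a factor of 12 levels, feeding in ZT0 to ZT12 and ZT14 to ZT22, and a 24 h cosine per feeding group. Standard errors were the fold change over the square root of F. Amplitudes and peaks came from limma 3.58.1 on log2 CPM. Labels of ZT24 to ZT46 in liver and ileum were read as ZT0 to ZT22. Levels were counts over the library total, ordered by mean log2(CPM + 0.1), and compared between neighbours by permutation (100000 resamples). Genes most like a member were the 5 of highest r over tissue means. In tissues where a member passed, the reported ketone enzymes, transporters and receptors that passed the mean level test were named. Of the lists of fatty acid oxidation and acetyl-CoA use, only some genes were named, and only in some of these tissues. The mean-level test, the ALF cosine test and the fitted peak times were tried on counts simulated from heart and liver. The other tests were not tried on simulated data. Alternatives were DESeq2 1.42.0, its size factors, no filter, a replicate block, each replicate or clock time left out, GC content, libraries left out, a 12 h harmonic and, added after seeing the data, library size alone and libraries rich in another tissue's markers. Members and lists were chosen with earlier results of these data known.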

Additional observations from a re-analysis of the deposited data

Results flagged for a closer look

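For 24 pairs of tissues, chosen because the TRF effect on a gene passed in opposite directions, the difference itself passed edgeR's tissue by feeding term (Benjamini-Hochberg adjusted p, TMM scaling), which follows largely from that choice. Each value below is the log2 fold change in the first tissue minus that in the second.

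Bdh1 in iWAT against the 3 tissues where it fell differed by 1.42 from liver (adjusted p = 1.8e-05), by 1.31 from duodenum (6.4e-06) and by 1.29 from hypothalamus (1.7e-05). Bdh1 in heart differed by 0.57 from liver (0.00099), by 0.49 from duodenum (0.00011) and by 0.44 from hypothalamus (0.00024). Bdh1 in kidney medulla differed by 0.45 from liver (0.0031), by 0.37 from duodenum (0.00031) and by 0.32 from hypothalamus (3e-04).

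Oxct1 in duodenum differed by 0.96 from iWAT (adjusted p = 1.4e-09), by 0.82 from pancreas (5.1e-05), by 0.79 from stomach (1.6e-07) and by 0.65 from eWAT (6.4e-07). Oxct1 in hypothalamus differed by 0.48 from iWAT (7.1e-07), by 0.37 from pancreas (0.018), by 0.33 from stomach (0.00026) and by 0.23 from eWAT (0.00034). Both pancreas pairs depend on the scale: with library size alone Oxct1 was 0.16 higher in TRF in pancreas, 0.46 higher in duodenum and 0.06 higher in hypothalamus, so the directions were no longer opposite.

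Acat1 in eWAT differed by 0.78 from liver (adjusted p = 5.9e-07), by 0.74 from stomach (1e-07), by 0.69 from jejunum (5.1e-08), by 0.67 from heart (4e-09), by 0.67 from lung (2.1e-07), by 0.64 from iWAT (2e-07) and by 0.59 from muscle (7.9e-07). All 24 also passed with DESeq2's size factors in place of TMM.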

How the results depend on the processing

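Of the 20 mean-level calls, 20 were kept with DESeq2, 20 with its size factors, 19 with no filter on low counts, 17 with library size alone, 12 with the GC content correction and 16 to 19 with 1 clock time left out. Library size alone turned Oxct1 in pancreas to 0.16. The number of tissues passed (6 for Bdh1, 6 for Oxct1, 8 for Acat1) was 3 for Oxct1 with the GC correction. With 1 replicate left out it ran from 1 to 3 for Bdh1, from 1 to 3 for Oxct1 and was 3 for Acat1 both times, since 1 library per group and clock time was then left. At ZT0 to ZT12 the GC correction kept 4 of the 8 calls (with 8 passed in all), and the 8 became 4 without libraries rich in another tissue's markers and 1 to 4 with a replicate left out. At ZT14 to ZT22 the 17 became 9 with the GC correction and 3 to 5 with a replicate left out. The window difference passed in 0 tests but in 1 with the GC correction (Bdh1 in stomach), 1 without ZT0 and ZT22 (Acat1 in stomach) and 3 with library size alone, all in stomach. For Bdh1 the sign turned with the scale: 0.37 with the GC correction and -0.24 with library size alone. With a replicate left out, the 8 ALF cosines became 2 to 3, the 24 TRF cosines 6 to 8 and the 3 course differences 0. Those 3 became 1 without libraries that stand apart and 5 with library size alone. The cause of these shifts was not tested. Low counts limit Bdh1 in fat (a median of 10 per ALF library in eWAT) and Oxct1 in liver (82).

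Sharing a replicate number did not tie ALF to TRF libraries: over 245 comparisons same-numbered libraries had deviations with a median correlation of 0.0265 (-0.779 to 0.799). With the replicate block all 20 mean-level calls were kept, as were 8 of 8 at ZT0 to ZT12 and 17 of 17 at ZT14 to ZT22. With TMM over all libraries 9, 8 and 10 neighbour pairs of Bdh1, Oxct1 and Acat1 did not pass, but the pairs were not the same. Single tissues moved up to 3, 3 and 6 places, and steps near the top of each order changed as given above.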
